A study of Drosophila melanogaster with 6 samples.

Results

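The genes of the piRNA pathway were followed on 6 Affymetrix arrays of whole Drosophila melanogaster embryos. The list holds 34 genes that make, load, modify or act with piRNAs, and a gene was measured where a probe set named it and no other gene. That left 32 of the 34, among 11953 genes named on the array. No probe set named arx or egg alone, so neither was analysed here. For tapas and qin, which have 2 probe sets each, the brighter on average stood for the gene. The control group was the tub-Gal4 strain (3 arrays), in which the yeast activator Gal4 is made under a tubulin promoter. The Sage group (3 arrays) carried tub-Gal4 and a UAS-Sage transgene, so that Sage, a basic helix-loop-helix transcription factor of the salivary gland, was made throughout the embryo. Both groups therefore carry the driver, and both were embryos of stages 11 to 16, described as matched in age and sorted by machine before RNA extraction. The labels do not say which parent brought the transgene, nor whether replicate arrays stem from different batches of embryos. A p-value here therefore reflects the spread among the samples as given, part of which may be technical.

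piRNAs are small RNAs that guide Piwi-family Argonaute proteins to transposon transcripts, chiefly in the germline. In Drosophila they come from long precursors transcribed at heterochromatic clusters, which are exported to the nuage, a germ granule around the nucleus, and cut either by Aub and AGO3 in the ping-pong cycle or by the nuclease Zuc on mitochondria. Mothers load piRNAs, their Argonaute proteins and many of the messenger RNAs of the pathway into the egg, and later in embryogenesis the germ cells are few. In RNA from whole embryos, fewer cells of a type and less RNA per cell cannot be told apart.

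All values below are log2 signals of 1 probe set as deposited, and a difference is Sage minus control on that scale. The sage transcript was at 7.52 ± 0.14 in the controls (SD, n = 3) and rose by 4.96 with the transgene. Array medians lay between 5.56 and 5.74, and signals below them are called dim here. Pearson's r over all probe sets was 0.938 between control replicates 1 and 3, 0.987 between control replicates 1 and 2, and 0.989 to 0.996 among the Sage arrays. Single genes of neurons (elav, 10.1 to 11.1), muscle (Tm2, 9.47 to 12.6) and epidermis (kkv, 9.73 to 11.9) were bright on all 6 arrays. Not every gene of these tissues was, as brp of neurons lay at 5.63 to 6.15 and ple of epidermis at 4.57 to 4.98. The hybridisation control BioB was 1.39 higher on the Sage arrays, and the excess of the 3' over the 5' probe set was larger there for actin (by 0.99), GAPDH (by 0.51) and eIF-4a (by 0.43), each without overlap between the groups. The DapX labelling control was lower on the Sage arrays, by -0.66, also without overlap. The part of these technical measures in the results was not tested, and handling and group cannot be told apart. With 3 arrays a group, their number limits the precision.

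Most of the pathway was lower with Sage. Of the 32 genes, 19 fell and none rose at an adjusted p under 0.05 (limma with Benjamini-Hochberg adjustment over all 18769 probe sets), where 9.45% of all probe sets were called lower and 4.25% higher. At an unadjusted p under 0.05 by limma, 23 were lower and 0 higher, where 2746 of all 18769 probe sets were lower and 2244 higher. The median difference of the 32 was -1.53, against 0.00 over all probe sets. In 13 genes the fall was called and at least 4-fold, a size reached by 1.09% of all probe sets. In 23 genes the highest Sage array lay below the lowest control array, as in 18.1% of all probe sets. By an exact permutation test, two-sided, each of these 23 had p = 0.1, and 3 against 3 can give no smaller value. The 19 called falls ranged from 2.48-fold (Panx) to 15.6-fold (tej), with adjusted p-values of 0.000608 to 0.0199 by limma, and the gap between the groups was 0.85 to 3.43. With Sage, 9 of these 19 were dim on all 3 arrays, where RMA values compress differences, so their folds are approximate.

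**Figure D1:**
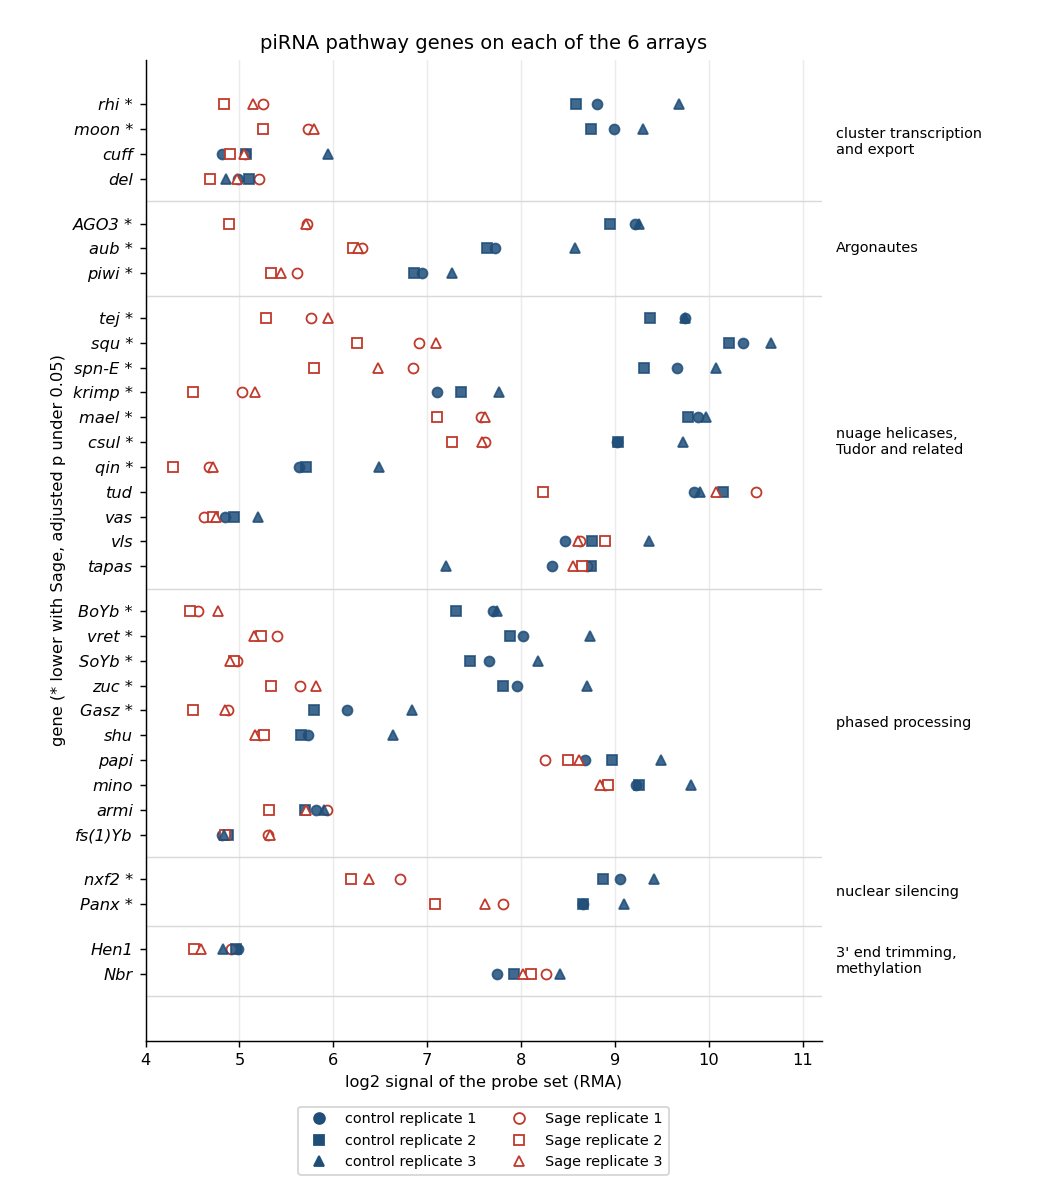
Log2 signal (x axis) of each of the 32 piRNA pathway genes (y axis, grouped by role) on the 3 control arrays (filled blue) and the 3 Sage arrays (open red), with 1 symbol shape per replicate number and an asterisk beside the 19 genes that fell. The filled and open symbols of these 19 lie apart by 0.85 to 3.43, while genes such as tud, vls and Nbr mix them.

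The genes for transcription of the clusters comprised rhi and moon, which fell, and cuff and del, which were not called. Rhi is a chromodomain protein that marks piRNA clusters. The signal of rhi was 8.81, 8.58 and 9.68 in control replicates 1, 2 and 3, and 5.25, 4.84 and 5.14 in Sage replicates 1, 2 and 3. All 3 control arrays were thus bright and all 3 Sage arrays dim, a difference of -3.95 (SE 0.30, adjusted p = 0.00131 by limma). Moon, a germline relative of a general transcription factor that starts transcription within the clusters, followed the same course. Its signal was 8.99, 8.74 and 9.30 in the controls and 5.73, 5.25 and 5.79 with Sage, a 10.7-fold fall (adjusted p = 0.000955 by limma).

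The partners of Rhi could not be followed as well. Cuff protects the precursors from end processing, and cuff was at 4.81, 5.07 and 5.94 in the controls and 5.06, 4.90 and 5.05 with Sage. Control replicate 3 stood well above the Sage arrays, control replicate 2 barely (5.07 against at most 5.06), and control replicate 1 below them. The difference of -0.27 did not pass (adjusted p = 0.63 by limma). Del links Rhi to Moon, and del was dim on all 6 arrays, at 4.98, 5.10 and 4.86 against 5.21, 4.69 and 4.97. Its difference was -0.02, with a 95% interval of -0.39 to 0.35, and Nbr, described further on, lies near it with 4 protein-coding genes between them. Such dim signals limit what could be seen of a change.

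All 3 genes for Piwi-family Argonaute proteins fell. AGO3 holds sense piRNAs in the ping-pong cycle, and its transcript went from 9.21, 8.95 and 9.25 to 5.72, 4.89 and 5.71. This was a 12.98-fold fall (difference -3.70, SE 0.25, adjusted p = 0.0011 by limma), and the nearest arrays of the groups were 3.23 apart. Aub, its cytoplasmic partner, takes mainly antisense piRNAs. The aub signal was 7.72, 7.64 and 8.57 in the controls and 6.30, 6.21 and 6.26 with Sage, a 3.30-fold fall (adjusted p = 0.0087 by limma). The Sage arrays lay close together, and the highest control array was again replicate 3. Piwi carries piRNAs into the nucleus, and piwi went from 6.94, 6.86 and 7.26 to 5.61, 5.34 and 5.44, a 2.95-fold fall (adjusted p = 0.00183 by limma). In the RefSeq gene order, aub and piwi lie near each other with 2 protein-coding genes between them.

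Of 11 genes for nuage helicases, Tudor proteins and related nuage factors, 7 fell and 4 did not pass. The transcript of tej, for a Tudor protein, went from 9.75, 9.37 and 9.75 to 5.76, 5.28 and 5.94 (difference -3.96, SE 0.20, adjusted p = 0.000647 by limma). It ranked 11 and rhi 12 among all probe sets by size of fall, and their order turned with the arrays used: without control replicate 1 the differences were -3.90 for tej and -4.05 for rhi. Squ is a nuage protein that binds Aub, and squ was at 10.36, 10.21 and 10.66 in the controls and at 6.91, 6.25 and 7.09 with Sage, 12.6-fold lower. spn-E, which encodes an RNA helicase with a Tudor domain, went from 9.66, 9.31 and 10.08 to 6.85, 5.79 and 6.47, 9.95-fold lower. Their adjusted p-values were 0.0011 and 0.00237 by limma, and neither gene had overlapping groups.

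Falls of other nuage genes were smaller. Krimp is a Tudor scaffold for AGO3 and Aub, and krimp was at 7.10 to 7.76 in the controls and 4.50 to 5.16 with Sage, 5.69-fold lower. Mael, which shuttles between nuage and nucleus, was steady in the controls at 9.78 to 9.97 and lay at 7.10 to 7.61 with Sage, 5.47-fold lower. csul encodes the arginine methyltransferase whose marks Tudor proteins bind, and it went from a range of 9.02 to 9.72 to one of 7.26 to 7.62, 3.41-fold lower. In the RefSeq gene order krimp and csul have 3 protein-coding genes between them. Qin is a Tudor protein that keeps ping-pong between unlike partners. The qin probe set used here fell by 1.38, while its second, dim probe set differed by -0.07 (95% interval -0.29 to 0.16, adjusted p = 0.721 by limma). With both averaged, qin differed by -0.72 (adjusted p = 0.0389 by limma).

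The 4 nuage genes that did not pass behaved in different ways. Vas is a DEAD-box helicase used as a germline marker, and its probe set was dim on all arrays, at 4.85, 4.94 and 5.20 in the controls and 4.62, 4.72 and 4.75 with Sage (difference -0.30, adjusted p = 0.163 by limma). The identifier that the platform annotation gives for vas is no longer current, so it was matched by symbol. The gene overlaps solo in the RefSeq table, so the probe set may read both. Tud, the founding Tudor protein, was bright in the controls at 9.84, 10.15 and 9.91. With Sage the tud signal was 10.50, 8.23 and 10.08, so that Sage replicate 2 alone lay below the controls. Its difference was -0.37 (95% interval -1.79 to 1.06) with all arrays and 0.32 without Sage replicate 2, and neither passed (adjusted p = 0.764 and 0.38 by limma).

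Vls, a partner of Csul in the methyltransferase complex, kept similar signals. The vls values were 8.47, 8.75 and 9.36 in the controls and 8.63, 8.89 and 8.61 with Sage, a difference of -0.15 (95% interval -0.73 to 0.43). Its partner csul fell 3.41-fold, as given above, though the difference between the 2 genes was not tested. Tapas, a further Tudor protein, had the most positive difference of the pathway, at 0.54 (95% interval -0.41 to 1.49, adjusted p = 0.447 by limma). That value rests on control replicate 3, where tapas was at 7.20, against 8.33 and 8.74 on the other control arrays and 8.70, 8.65 and 8.55 with Sage. Without control replicate 3 the difference was 0.10.

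Phased processing on mitochondria and Yb bodies was represented by 10 genes, of which 5 fell. Zuc is the nuclease that sets piRNA 5' ends, and zuc went from 7.96, 7.81 and 8.70 to 5.64, 5.34 and 5.81, 5.89-fold lower (adjusted p = 0.00277 by limma). BoYb, vret and SoYb encode Tudor proteins of this step and fell 7.91-fold, 7.73-fold and 7.08-fold. Control signals were 7.31 to 7.74 for BoYb, 7.88 to 8.73 for vret and 7.45 to 8.18 for SoYb. With Sage the 3 were dim on every array, at 4.47 to 4.77, 5.15 to 5.40 and 4.90 to 4.97. fs(1)Yb, the relative that acts in somatic cells of the ovary, was instead dim in both groups, at 4.81, 4.88 and 4.84 against 5.30, 4.85 and 5.33 (difference 0.31, adjusted p = 0.242 by limma). It passed without Sage replicate 2 (0.47, adjusted p = 0.0369 by limma).

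The remaining genes of this step moved less. Gasz, a scaffold on the mitochondrial surface, was at 5.79 to 6.84 in the controls and 4.51 to 4.88 with Sage, 2.85-fold lower. Armi is the RNA helicase that feeds precursors to Zuc, and armi had overlapping groups at 5.81, 5.70 and 5.90 against 5.93, 5.31 and 5.71 (difference -0.15, 95% interval -0.57 to 0.26). Shu, a co-chaperone for loading the Argonautes, differed by -0.79 (adjusted p = 0.119 by limma). papi, for a mitochondrial Tudor protein, and mino, for an acyltransferase of the mitochondrial surface, differed by -0.59 and -0.55 (adjusted p = 0.16 and 0.0967 by limma). In shu, papi and mino all 3 control arrays lay above all 3 Sage arrays, but control replicate 3 stood well above the other controls. Without it, shu (-0.48, adjusted p = 0.0146 by limma) and mino (-0.36, adjusted p = 0.034 by limma) passed, while papi did not (-0.37, adjusted p = 0.181 by limma).

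Both measured genes for nuclear silencing fell, and neither gene for finishing the 3' end passed. Panx and Nxf2 act in 1 complex that brings silencing to transcripts bound by Piwi. nxf2 was at 9.05, 8.87 and 9.41 in the controls and 6.71, 6.19 and 6.38 with Sage, 6.42-fold lower (adjusted p = 0.00117 by limma). Panx was at 8.66, 8.66 and 9.10 against 7.81, 7.08 and 7.61, 2.48-fold lower (adjusted p = 0.0155 by limma). Nbr, the exonuclease that trims piRNA 3' ends, was at 7.74, 7.92 and 8.41 against 8.26, 8.11 and 8.02, a difference of 0.11 (95% interval -0.35 to 0.56). Hen1 adds the methyl group at the trimmed end, and Hen1 was dim on all 6 arrays (4.52 to 4.98; difference -0.24, adjusted p = 0.291 by limma).

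Gasz and qin did not pass without any single Sage array (adjusted p = 0.0636, 0.081 and 0.0762 for Gasz and 0.0659, 0.0796 and 0.0702 for qin, without Sage replicates 1, 2 and 3). Panx did not pass without Sage replicate 3 (adjusted p = 0.0634 by limma). The differences then were -1.57, -1.39 and -1.56 for Gasz, -1.43, -1.25 and -1.46 for qin and -1.36 for Panx. The other 16 falls passed with any one array left out, and at least 16 of the 19 were kept in each such fit. Among probe sets above the median in mean signal, 17 of the 23 piRNA genes present fell, where 18.6% of those probe sets did. That mean includes the control arrays, so genes bright only there also passed the filter. The count therefore gives no separate support for the falls.

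Because the controls differ among themselves, each was also compared on its own with the Sage mean. Control replicate 1, the control most like the Sage arrays over the entire array, exceeded that mean by over 1 log2 unit in 19 of the 32 genes, where 4.53% of all probe sets did. In control replicate 2 the number was also 19 (4.81% of all probe sets), and in control replicate 3 it was 21 (9.94%). The median excess over the 32 genes was 1.43, 1.27 and 2.01 in control replicates 1, 2 and 3. For tej the excess was 4.09, 3.71 and 4.09, for AGO3 3.77, 3.51 and 3.81, and for mael 2.46, 2.35 and 2.55, so that for these genes the 3 controls gave nearly the same value. For aub (1.47, 1.39 and 2.31), Gasz (1.39, 1.04 and 2.10) and shu (0.52, 0.44 and 1.41) control replicate 3 stood above the other controls.

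**Figure D2:**
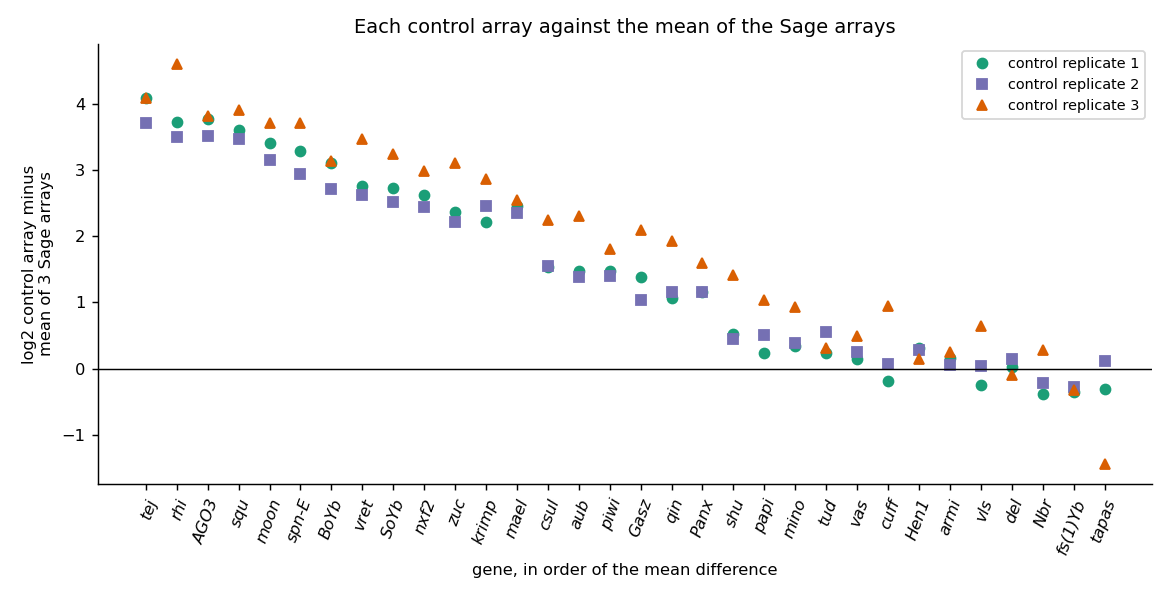
Log2 signal of each control array minus the mean of the 3 Sage arrays (y axis) for the 32 piRNA pathway genes (x axis, ordered by the mean difference), with 1 symbol per control replicate and a line at 0. Symbols of control replicates 1 and 2 lie close together from tej (4.09 and 3.71) to Panx (1.16 in each), and control replicate 3 lies above them for most genes and far below for tapas (-1.44).

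With a single control array in the fit, the spread comes from the Sage arrays only and the lone control is assumed to vary like them. Control replicate 1 alone gave 19 genes lower, where 7.81% of all probe sets were called lower, and 18 of these were among the 19 of the reported test. Control replicate 2 alone gave 18 (9.01% of all probe sets), all of them among the 19, and control replicate 3 alone gave 25 (17.9%), which included all 19. Panx was the gene lost against control replicate 1 or 2 alone (adjusted p = 0.0599 and 0.0534 by limma, difference -1.16 in each).

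The arrays within a group were not in the same order for all genes, but some orders recurred. Control replicate 3 was the highest control array for 18 of the 19 genes that fell and for 27 of all 32, where this was so for 57.7% of all probe sets. Sage replicate 2 was the lowest Sage array for 17 of the 19 and for 23 of the 32, where this was so for 30.4% of all probe sets. Both are descriptions of these arrays.

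Other genes of the pathway and of germ granules were also followed. Of 32 listed, 23 were measured, 12 fell and none rose (0 higher at an unadjusted p under 0.05), where 9.45% of all probe sets were called lower. The median difference was -0.87. kipf, for a zinc finger protein that guides Rhi to clusters, went from 7.26, 7.03 and 7.65 to 5.17, 4.35 and 4.92, and Trf2, for the factor that works with Moon, from 8.79, 9.02 and 9.50 to 7.72, 6.02 and 7.48. Their differences were -2.50 and -2.03 (adjusted p = 0.00284 and 0.0421 by limma). Su(var)2-10 differed by -1.59 with the probe set used here and by -3.37 with its other one (adjusted p = 0.0144 and 0.00153 by limma). osk, the germ plasm organiser, had a difference of -2.48 that did not pass (adjusted p = 0.0549 by limma), with control signals of 5.78, 5.95 and 8.14. The 3 most positive differences were those of gcl (0.20), TfIIA-S-2 (0.13) and twin (-0.08), and none passed. The count was 7 without Sage replicate 1 and 5 without Sage replicate 3, where 1159 and 934 of all 18769 probe sets were called lower.

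Genes of the siRNA and miRNA pathways gave a measure of other small RNA machinery. Of 15 listed, 12 were measured, 4 fell and none rose (0 higher at an unadjusted p under 0.05), where 9.45% of all probe sets were called lower. The median difference was -0.50. r2d2, the partner of Dicer-2, differed by -1.16 and pasha, the partner of Drosha, by -1.04 (adjusted p = 0.00517 and 0.0065 by limma). Ranbp21, for an export receptor, and Dcr-2, for the siRNA Dicer, had differences of -1.10 and -1.07, neither of which was called (adjusted p = 0.0613 and 0.08 by limma). The most positive were vig2 (0.25), Fmr1 (0.21) and loqs (-0.03). The count was 2 without control replicate 2 and 2 without Sage replicate 3, where 1228 and 934 of all 18769 probe sets were called lower. Called falls of at least 4-fold were counted by the probe set used for each gene. They numbered 13 among 32 piRNA genes, 2 among 23 other piRNA and germ granule genes and 0 among 12 here. Among the 26 maternal transcripts described next they numbered 11. Of all probe sets, 1.09% fell this far. Whether the lists differ was not tested.

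Transcripts that the mother loads into the egg were a further comparison list. Of 30 listed, 26 were measured, 16 fell and none rose (0 higher at an unadjusted p under 0.05), where 9.45% of all probe sets were called lower. The median difference was -1.85. The list shares osk, me31B and gcl with the germ granule list. Marf1 (-4.94), swa (-4.48) and plu (-4.37) fell most, and gcl (0.20), alphaTub67C (0.19) and png (-0.04) were the most positive. The second probe set of Marf1 was dim on all arrays (4.71 to 5.18) and differed by -0.15 (adjusted p = 0.583 by limma). On single arrays the median excess over the Sage mean was 1.65, 1.56 and 2.32 in control replicates 1, 2 and 3, against 1.43, 1.27 and 2.01 for the piRNA list.

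**Figure D3:**
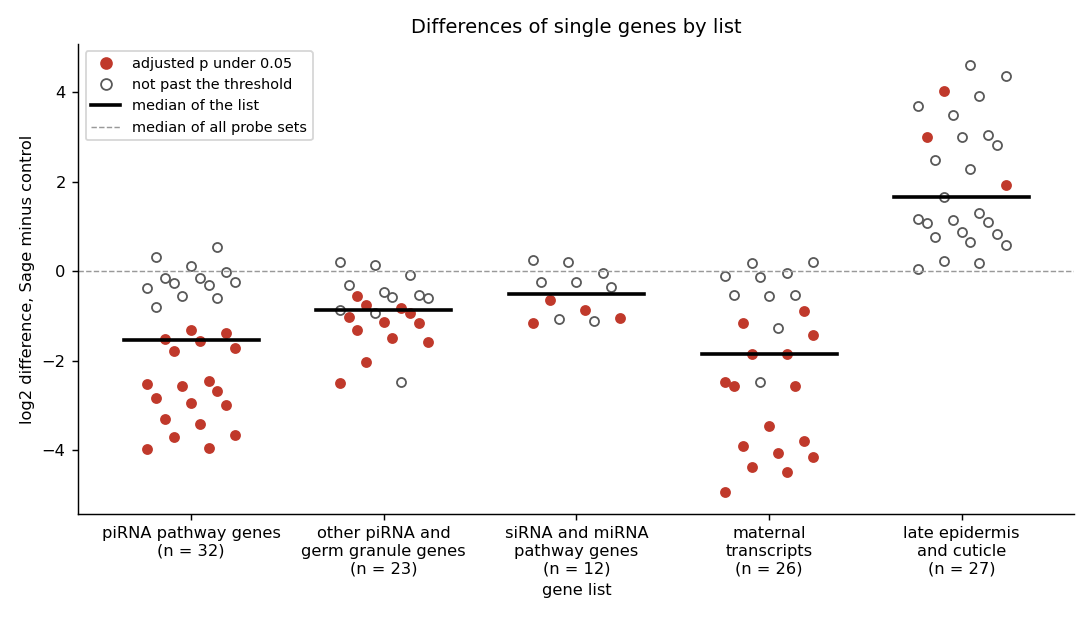
Log2 difference, Sage minus control (y axis), of single genes in 5 lists (x axis), filled where the adjusted p was under 0.05, with a black bar at each list's median and a dashed line at the median of all probe sets. The medians were -1.53 for the piRNA pathway, -0.87 for other piRNA and germ granule genes, -0.50 for siRNA and miRNA genes, -1.85 for maternal transcripts and 1.67 for late epidermis and cuticle.

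Genes of late epidermis and cuticle, which rise as embryos age, differed widely among the control arrays. Their median against the Sage mean was -0.57, -1.58 and -3.08 in control replicates 1, 2 and 3 (27 genes). From control replicate 1 to control replicate 2 the median cuticle gene differed by -1.42, and the median piRNA gene by -0.08. Between control replicates 1 and 3 the values were -2.27 and 0.43. Control replicate 1 lay nearest the Sage arrays in cuticle genes and control replicate 3 farthest. The piRNA excess over the Sage mean was 1.43, 1.27 and 2.01 in control replicates 1, 2 and 3, so it too was largest in control replicate 3. The part of embryo age in the piRNA values was not tested. Of the 27 cuticle genes 3 rose, where 4.25% of all probe sets were called higher. With single arrays left out the count of cuticle genes ran from 0 to 17. At an unadjusted p under 0.05 by limma, 14 were higher and 0 lower. TwdlB (24.3-fold higher), TwdlT (20.5-fold) and TwdlN (16.2-fold), genes of cuticle proteins, had the largest differences. Of these only that of TwdlN passed (adjusted p = 0.0189 by limma). The least positive were Cpr76Bd (0.04), ple (0.19) and sha (0.23).

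**Figure D4:**
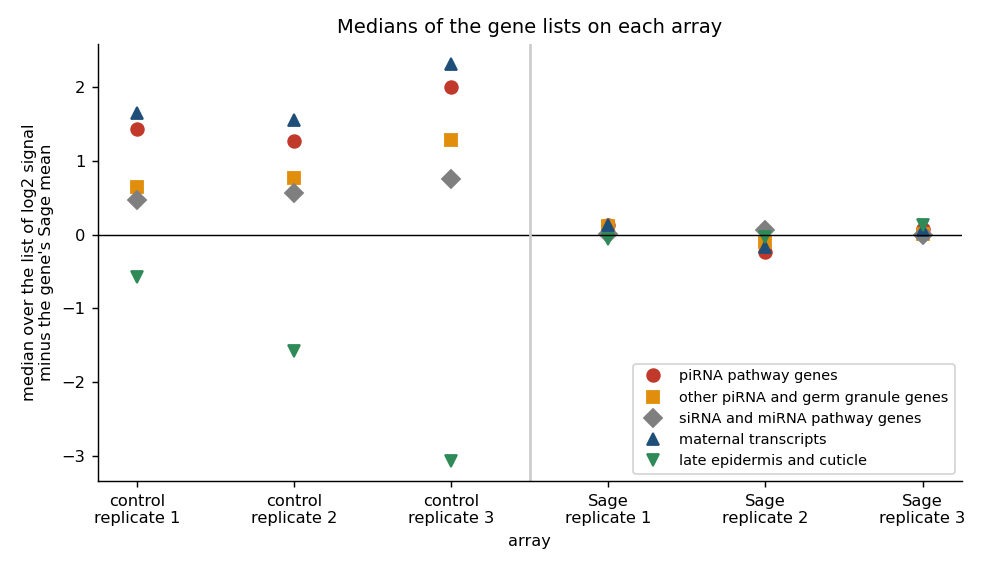
Median over each list of the log2 signal minus the gene's Sage mean (y axis) on each of the 6 arrays (x axis), 1 symbol per list and a line at 0. The piRNA genes lie at 1.43, 1.27 and 2.01 on the control arrays and within 0.24 of 0 on the Sage arrays, while the cuticle genes lie at -0.57, -1.58 and -3.08 on the controls.

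Of the salivary gland markers 5 of 6 rose, sage itself included, where 4.25% of all probe sets were called higher. None of 5 muscle and 4 neuron markers passed. Control replicate 3 stood apart in these, with medians of -3.01 for muscle and -0.82 for neurons against the Sage mean, where the other controls were at -0.13 to 0.15. For germ cells, of 11 listed, 8 were measured, and 3 of these fell, where 9.45% of all probe sets were called lower. The 3 were bam and the piRNA genes AGO3 and aub, which the lists share. The bam transcript, for a factor of germ cell differentiation, went from 7.65, 7.34 and 8.19 to 4.55, 4.33 and 4.44 (difference -3.29, adjusted p = 0.0011 by limma). zpg, a gap junction gene of germ cells, was at 5.57 to 6.04 in the controls and 5.72 to 5.83 with Sage (difference -0.02, adjusted p = 0.965 by limma), bgcn at 4.99 to 5.56 and 5.19 to 5.34, and vas was dim as given above. ovo and gcl, listed for a germline transcription factor and a germ cell specification factor, differed by -0.52 and 0.20. Neither passed (adjusted p = 0.31 and 0.616 by limma). Their signals, 9.01 to 10.13 and 9.93 to 10.72 over the 6 arrays, lay far above those of zpg, bgcn and vas. Whether the signals of ovo and gcl stem from germ cells was not tested, so they give no measure of germ cell number. Over the 8 the median difference was -0.41. Their median signal was 7.49 to 8.38 in the controls and 5.53 to 5.77 with Sage, where the middle genes of the list were not the same in both groups. Among 9 markers of ovarian follicle cells, whose RNA could reach an egg collection from mothers, 1 rose (Vm26Aa, 0.63) and none fell. The list's median signal was 5.52 to 5.74 in the controls and 5.55 to 5.99 with Sage. Far above it lay slbo, at 12.29, 11.64 and 8.16 in control replicates 1, 2 and 3 and 12.00 to 12.43 with Sage. Like kkv of epidermis and Tm2 of muscle, slbo was lowest on control replicate 3. Whether its signal stems from follicle cells was not tested. The part of germ cell number in the fall of the piRNA genes was not tested.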

How the data were processed

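RNA was measured on 6 Affymetrix arrays, 3 of the tub-Gal4 strain and 3 with UAS-Sage. The authors deposited log2 signals per probe set. Per the submitters' processing notes, the tools were RMA and Partek (versions not given in the sources used here). RMA equalises the arrays' distributions, so a change in total RNA per embryo is not visible. Labelling used a 3' in vitro transcription kit, per the labels' protocols. All value columns were used.

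The table has 18952 probe sets. Without its 183 controls, 18769 were tested, with no filter. Exactly 1 gene was named by 13647, several by 402 and none by 4720. Symbols of 13544 were updated by identifier and of 91 by symbol to the RefSeq table of Release 6, which served for names and gene order only. No sequence is shown.

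The test was limma 3.58.1 in R 4.3.3 (lmFit and eBayes, two-sided, no covariate), with Benjamini-Hochberg adjustment over all probe sets at 0.05, and intervals are 95% limits from the same fit. It was tested on simulated data with 68, 59 and 73 probe sets changed 1.5-fold, 2-fold and 4-fold. Of these it recovered 27.9%, 54.2% and 89%, with 9 false calls among 125 calls, so small changes can be missed. Figures were drawn with matplotlib 3.10.9. Every measured member is named, and the 3 largest falls and 3 largest rises of each comparison list, cell type markers aside. Alternatives were leaving out single arrays, a block for the replicate number, each control alone, dim probe sets, scaling, the prior, gene-by-gene array weights and other probe sets. Members and lists were chosen with earlier results of these data known.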

Additional observations from a re-analysis of the deposited data

Results flagged for a closer look

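Of the technical signals outside the gene comparison, 4 were higher on all 3 Sage arrays than on any control array. The BioB hybridisation control differed by 1.39, and the 3' minus 5' probe set values by 0.99 for ACTIN, 0.51 for GAPDH and 0.43 for eIF-4a. The DapX labelling control went the other way (-0.66). Their part in the piRNA results was not tested.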

How the results depend on the processing

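The 19 falls of piRNA genes were the same under the replicate block (count 19, median -1.53), median centring, quantile normalization, the trended and robust priors, 1 probe set per gene and the mean of probe sets. With array weights 21 fell, where 2771 of all 18769 probe sets did, against 1774 in the reported fit. Single arrays left out gave 16 to 21 falls, medians of -1.69 to -1.32 and 0 to 1 rises, and 5 to 13 falls among other piRNA and germ granule genes. Over all probe sets these fits called 934 to 2035 lower. The 1 rise was fs(1)Yb, also with array weights. Against control replicate 3 alone the median was -2.01, and tapas differed by 1.44. Keeping probe sets above the median in mean signal gave -2.51 from 23 genes, fewer than otherwise. That filter lets in genes bright only in the controls, so its median is no separate support. Genes with no call changed sign, the cause untested. With single arrays left out, the differences ran from -0.04 to 0.30 for Nbr, -0.29 to 0.02 for armi, -0.51 to 0.06 for cuff, -0.15 to 0.11 for del (0.04 without control replicate 2), -0.81 to 0.32 for tud and -0.34 to 0.10 for vls. Against control replicate 1 alone cuff was at 0.19 and vls at 0.24, against control replicate 2 alone tapas at -0.11, and against control replicate 3 alone Nbr at -0.28 and del at 0.10. Counts added after seeing the data ran from 2 (replicate block) to 8 (array weights) for falls of siRNA and miRNA genes, 15 to 21 for falls of maternal transcripts and 0 (replicate block) to 24 (control replicate 3 alone) for rises of cuticle genes. The cause was not tested. Dim signals limit del, vas, fs(1)Yb and Hen1, which lay below the median on all 6 arrays. Same-numbered arrays deviated from their group means with correlations of -0.126, -0.0681 and -0.248, so the numbers were not taken to pair them, and the block moved the falls over all probe sets from 1774 to 1057.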
